A study of Mus musculus with 2 samples.

Results

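Rab GTPases are small membrane switches that mark which compartment a vesicle belongs to. Bound to GTP, they recruit tethers, motor adaptors and lipid enzymes, and bound to GDP they are returned to the cytosol. In the heart muscle cell they steer endosomes, the delivery of autophagosomes to lysosomes, secretion through the Golgi and the movement of glucose transporters and ion channels to the surface. LAMP2 is a membrane protein of late endosomes and lysosomes, the compartments that Rab7 serves.

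The Rab genes were taken as all rows of the expression table whose symbol is Rab followed by a number, with at most 1 letter and 1 further digit, which leaves out effectors with longer names. This gave 57 of 31920 listed genes. Of these, 35 reached 5 reads per 1000000 reads assigned to genes (RPM) in at least 1 library and were used for ratios. By the compartment each protein is known for, they were placed in an endosomal group (13 of 16 at or above that level), a lysosomal group that includes late endosomes and autophagosomes (6 of 13), a secretory group of the reticulum, Golgi and exocytosis (12 of 22) and other sites (4 of 6). The values nearest the limit were 5.36 RPM for Rab30 in the higher library, just inside, and 4.67 RPM for Rab2b, just outside.

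Polyadenylated RNA of the cardiac left ventricle gave 1 library from wildtype males and 1 from males labelled Lamp2 knockout, all 129-SvEv mice aged 10 weeks; the labels do not say whether a library is 1 mouse or a pool. Neither the allele nor the deleted part of Lamp2 is described in the labels. The libraries held 8410593 and 8773820 reads assigned to genes. With 1 library per group there is no replicate check, and no p-value is given. Each ratio below is knockout-labelled over wildtype RPM, followed by its exact 95% interval from the reads, which covers counting error only and compares 2 libraries, not 2 genotypes.

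Lamp2 itself had 118 RPM in the wildtype and 112 RPM in the knockout-labelled library, so its level does not check the label. Mitochondrial transcripts took 26.5% of wildtype reads and 16.2% of knockout-labelled reads, which moves the RPM of all other genes. The median log2 ratio of the 10209 genes at or above 5 RPM was 0.11, computed with 1 RPM added to each value. Ratios were therefore also rescaled, by dividing by 1.08 (median ratio of all genes), 1.09 (trimmed mean) or 1.15 (total after removal of mitochondrial transcripts and of the 10 genes with the most reads). Ventricular cardiomyocyte markers summed to 55075 and 52364 RPM over 8 genes and the atrial markers Myl7, Myl4 and Sln to 4.99 and 1.94 RPM. Macrophage markers, 8 of 9 listed, summed to 141 RPM in the wildtype and 279.9 RPM in the knockout-labelled library, with none at 0. They were not all higher. C1qb had 45.8 and 121.0 RPM and C1qa 37.7 and 82.1 RPM, ratios of 2.64 and 2.18. Cd68, Cd163 and Emr1 had ratios of 1.99, 1.92 and 2.88. Csf1r was at 1.199, Mrc1 at 1.02 and Ptprc at 0.767, with Emr1 and Ptprc below 5 RPM. The part of macrophages in the results below was not tested. In bulk tissue, fewer cells of a type and less RNA per cell cannot be told apart.

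Promoter sequence was examined for the site of TFEB, the transcription factor that drives lysosomal genes through the CLEAR box, and for the E-box CACGTG that forms its core. The CLEAR box was searched as the E-box with GT before it and AC after it. Both read the same on either strand, and each CLEAR box is also counted as an E-box. RefSeq windows in GRCm38.p6, from 250 bases before to 50 bases after each start, were matched for 31 of the 35 Rab genes. A CLEAR box lay in the windows of 3 of the 31 genes, Rab5a, Rab21 and Rab24, or 7.69% of the 39 windows of the 31 genes. The share was 0.749% of 9209 windows of genes at or above 5 RPM and 0.326% of all 32851 windows. An E-box lay in 5 of the 31 genes, or 12.8% of their 39 windows, close to the 10.3% of windows of genes at or above 5 RPM. These were chosen for display from 7 motifs searched on both strands, after their matches were seen. Of the rest, the GC box GGGCGG lay in 26 of the 31 genes (76.9% of windows, against 64.7%), CCAAT in 19 (48.7%, against 37.0%), the cyclic AMP response element in Rab5a alone, the MEF2 site in none, and a shorter core of the CLEAR box in the same 3 genes as the whole box. The windows that follow are those wholly before the start, 60 bases each and 5′ to 3′ on the gene's strand. Capitals mark the CLEAR box in the Rab5a and Rab21 windows that hold one, and the E-box elsewhere. They lie at chr17:53479112-53479171 (plus strand) for Rab5a with the CLEAR box, chr10:115315592-115315651 (minus) for Rab21, chr17:53478984-53479043 (plus) for a further Rab5a site, chr8:11478654-11478713 (minus) for Rab20 and chr1:33719651-33719710 (plus) for Rab23.
Rab5a, CLEAR box: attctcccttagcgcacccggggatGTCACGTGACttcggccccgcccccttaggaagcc
Rab21, CLEAR box: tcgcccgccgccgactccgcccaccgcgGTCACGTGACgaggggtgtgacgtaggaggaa
Rab5a, E-box: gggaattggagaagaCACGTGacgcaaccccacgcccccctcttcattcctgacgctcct
Rab20, E-box: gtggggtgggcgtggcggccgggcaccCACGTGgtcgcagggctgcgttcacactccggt
Rab23, E-box: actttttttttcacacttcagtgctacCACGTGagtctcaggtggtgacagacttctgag
The Rab genes with these letters had ratios on both sides of 1. They ran from 0.575 for Rab23 to 1.47 for Rab5a, with Rab21 at 1.13, Rab24 at 1.15 and Rab20 at 1.32. The windows of Rab4b, Rab31 and Rab7, the 3 genes with the highest ratios, held neither set of letters. A match is a description of sequence only, and its absence concerns this window alone.

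The Rab genes differed by small amounts. None of the 35 was at least 2-fold higher and none at least 2-fold lower (log2 ratio of 1 or more in size, with 1 RPM added), against 3.35% and 2.37% of all genes at or above 5 RPM. At least 1.5-fold higher were 5 genes, Rab4b, Rab31, Rab7, Rab22a and Rab4a, or 14.3% against 12.8% of all genes. At least 1.5-fold lower was 1 gene, Rab23, or 2.86% against 7.3%. These counts turned with the scale. With the median ratio or the trimmed mean, 3 genes were at least 1.5-fold higher (Rab4b, Rab31 and Rab7, against 9.03% and 8.97% of all genes) and 3 at least 1.5-fold lower (Rab23, Rab11b and Rab3a, against 10% and 10.1%). Without mitochondrial transcripts and the genes with the most reads, Rab4b and Rab31 were higher (6.98% of all genes) and 4 genes lower (Rab23, Rab11b, Rab3a and Rab13, against 12.4%). Ratios above 1 were found for 27 of 35 Rab genes (77.1%, against 61.2% of all genes). The interval lay above 1 for 19 (54.3%, against 35% of all genes) and below 1 for 4 (11.4%, against 16.8%). An interval is narrower for genes with more reads, so these shares also depend on level. The median log2 ratio was 0.21, beside 0.11 over all genes at or above 5 RPM.

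The counts of intervals above and below 1 depended on the scale. Each rescaling divides all ratios by the same number. It thus moves the Rab median and that of all genes together and cannot test their order. The Rab median was 0.11 against 0 for all genes with the median ratio and 0.10 against −0.0025 with the trimmed mean. Without mitochondrial transcripts it was 0.041 against −0.075. The intervals of 10 genes lay above 1 under the deposited scale and all 3 rescalings: Rab4b, Rab31, Rab7, Rab22a, Rab4a, Rab6a, Rab5a, Rab2a, Rab35 and Rab18. With the median ratio the intervals lay above 1 for 12 Rab genes (25.9% of all genes) and below 1 for 7 (24.1% of all genes), and with the trimmed mean again for 12 (25.7%) and 7 (24.3%). Under the rescaling without mitochondrial transcripts, which left these 10 alone above 1, they were 28.6% of Rab genes against 20.4% of all genes, and 9 Rab genes lay below 1, against 30.3% of all genes. As deposited, the intervals of Rab1, Rab11b, Rab3a and Rab23 lay below 1, that of Rab1 barely, with an upper bound of 0.9997. All 3 rescalings lower every ratio, so these genes had to stay below 1 and the rescalings do not check them. The summed reads of the 35 genes were 1808 RPM in the wildtype and 2115 RPM in the knockout-labelled library, a ratio of 1.17 (1.15 to 1.195), and 1.02 (0.9997 to 1.04) after that rescaling.

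**Figure D1:**
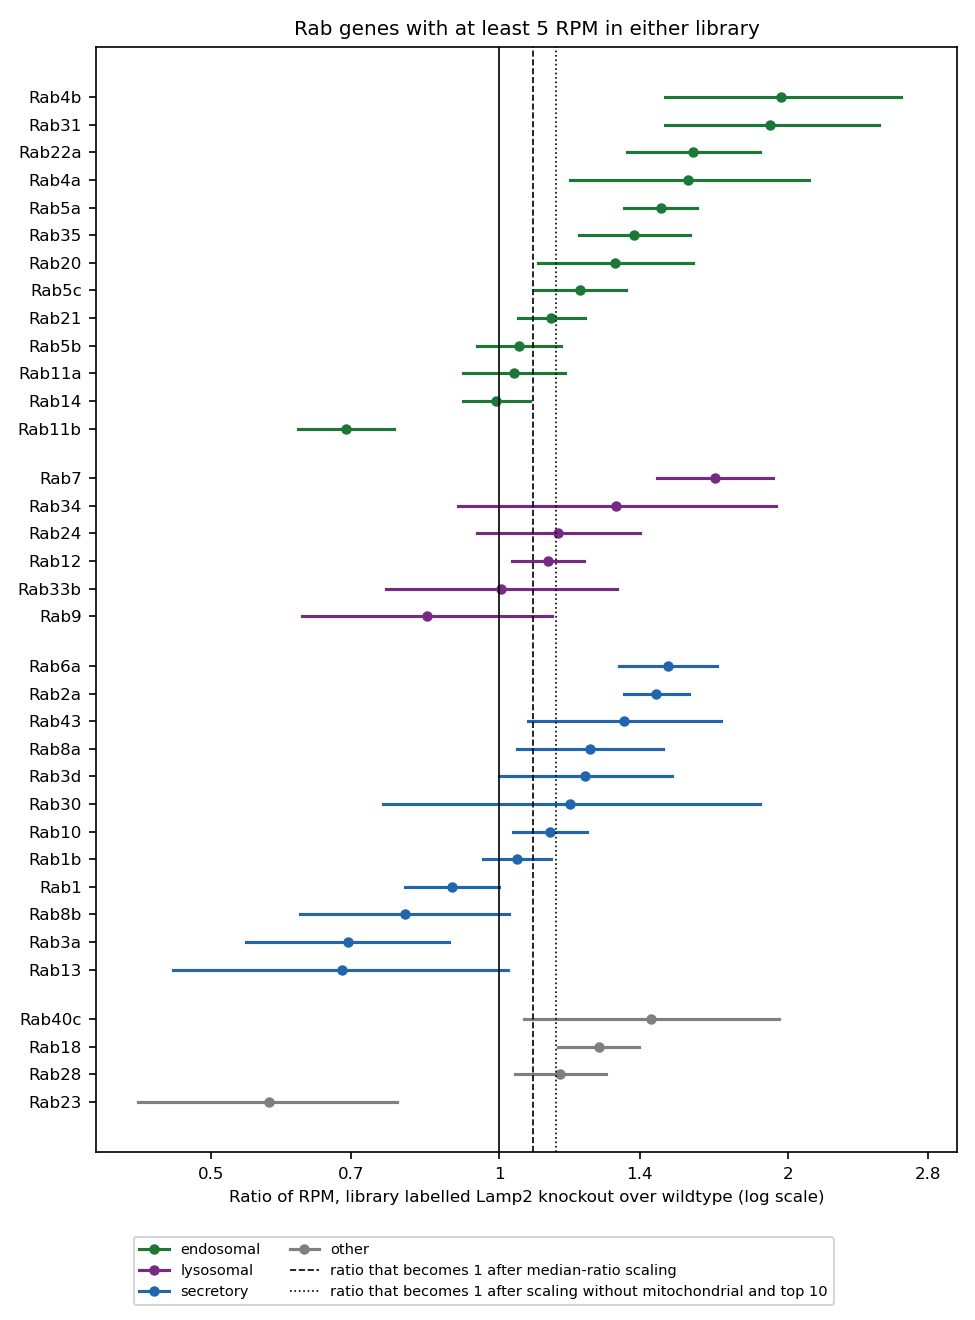
Ratio of RPM in the library labelled Lamp2 knockout over the wildtype library (log axis) for the 35 Rab genes at or above 5 RPM, 1 library per group, by compartment; points are ratios, bars exact 95% counting intervals, the solid line is 1, and the dashed and dotted lines are the ratios that become 1 under 2 of the rescalings. Rab4b, Rab31, Rab22a and Rab4a lead the endosomal group and Rab7 the lysosomal group, while Rab11b and Rab23 lie to the left.

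Endosomal Rab genes held 4 of the 5 genes that were at least 1.5-fold higher, or 30.8% of 13 genes against 12.8% of all genes. Of the 4, Rab4b and Rab31 were 1.5-fold higher on all 4 scales, while Rab22a and Rab4a were so as deposited alone. The share was thus 15.4% on each rescaling, against 9.03%, 8.97% and 6.98% of all genes. The median log2 ratio of the 13 was 0.39, and 0.20 after the rescaling without mitochondrial transcripts, beside −0.075 for all genes. Their summed reads had a ratio of 1.16 (1.12 to 1.19) as deposited, the lowest of the groups, beside 1.21 for lysosomal, 1.17 for secretory and 1.18 for other Rab genes. Rab4a and Rab4b return cargo quickly from early endosomes to the surface. Rab4b (chromosome 7, 27168433 to 27178883, mm10) had 9.04 RPM in the wildtype and 17.8 RPM in the knockout-labelled library, from 76 and 156 reads. Its ratio was 1.97 (1.49 to 2.62), the highest among the 35. Rab4a (chromosome 8, 123805996 to 123835291) had 9.63 and 15.2 RPM, a ratio of 1.57 (1.19 to 2.10). Of the Rab4b exon bases, 85.2% also belong to the annotated gene model Gm21983 on the same strand, so reads of the 2 cannot be told apart there.

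Rab31 and Rab22a, which are close relatives of Rab5 and act between the trans-Golgi and early endosomes, were the other 2. Rab31 (chromosome 17, 65651726 to 65772752) had 11.1 RPM in the wildtype and 21.2 RPM in the knockout-labelled library, a ratio of 1.92 (1.49 to 2.49). Rab22a (chromosome 2, 173659845 to 173702182) had 30.1 and 47.9 RPM, a ratio of 1.59 (1.36 to 1.87). Both stood above the wildtype level by more than counting error on all 4 scales.

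The 3 Rab5 genes encode the switch for fusion of early endosomes. Rab5a (chromosome 17, 53479234 to 53507678) had 99.9 RPM in the wildtype and 147 RPM in the knockout-labelled library, a ratio of 1.47 (1.35 to 1.61). Rab5c had 69.7 and 84.6 RPM, a ratio of 1.21 (1.09 to 1.35). Rab5b had 89.2 and 93.5 RPM, a ratio of 1.05 (0.948 to 1.16) whose interval includes 1. The order of the ratios was thus Rab5a, Rab5c, Rab5b, with the largest difference in the gene that was already the most abundant of the 3 in RPM per kb of exon (42.2 against 35.4 and 28.0 in the wildtype).

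Rab35, which drives fast recycling and the end of cell division, had 45.4 RPM in the wildtype and 62.8 RPM in the knockout-labelled library, a ratio of 1.38 (1.21 to 1.58). Rab20, linked to the maturation of phagosomes, had 23.9 and 31.6 RPM, a ratio of 1.32 (1.10 to 1.59), and the antisense gene E230013L22Rik covers 25.6% of its exon bases. Rab21, which moves integrins, had 130.0 and 147 RPM, a ratio of 1.13 (1.04 to 1.23) that was 0.989 after the rescaling without mitochondrial transcripts. Rab14, at the border of Golgi and endosome, had 140.2 and 139 RPM, a ratio of 0.993 (0.916 to 1.08).

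The Rab11 pair, which controls slow recycling from the perinuclear endosome, differed from each other. Rab11b (chromosome 17, 33742484 to 33760486) had 85.0 RPM in the wildtype and 58.8 RPM in the knockout-labelled library, a ratio of 0.692 (0.617 to 0.776). Rab11a had 60.3 and 62.5 RPM, a ratio of 1.04 (0.917 to 1.17). Rab11b was the only endosomal gene of the 13 with an interval below 1 on the deposited scale. Of its 50-base stretches, 9.69% also occur in transcripts of other genes, the pseudogene Rab11b-ps2 sharing the most, so some of its reads are of uncertain origin.

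Among the 6 lysosomal and late endosomal Rab genes, Rab7 had the highest ratio. Rab7 governs the fusion of late endosomes and autophagosomes with lysosomes and is used to mark the same membranes as LAMP2. The gene (chromosome 6, 88000435 to 88045232) had 38.5 RPM in the wildtype and 64.6 RPM in the knockout-labelled library, from 324 and 567 reads. Its ratio was 1.68 (1.46 to 1.93), higher than that of 92.0% of genes at or above 5 RPM on the log2 scale with 1 RPM added, and 1.46 (1.28 to 1.68) after the rescaling without mitochondrial transcripts. Stretches of 50 bases shared with other genes, the pseudogene Rab7-ps1 sharing the most, made up 11.4% of its transcripts.

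Of the other 5 lysosomal genes, Rab12 alone had an interval above 1 as deposited. Rab12, which directs transferrin receptor to lysosomes, had 114 RPM in the wildtype and 128 RPM in the knockout-labelled library, a ratio of 1.12 (1.03 to 1.23), or 0.981 after the last rescaling. Rab24, an atypical Rab of autophagosomes, had 23.1 and 26.6 RPM, a ratio of 1.15 (0.948 to 1.4002), and exons of Prelid1 on the opposite strand cover 66.4% of its exon bases. Rab33b, a Golgi Rab that binds the autophagy protein ATG16L1, had 12.5 RPM in both, a ratio of 1.004 (0.762 to 1.32). Rab9, which returns receptors from late endosomes to the trans-Golgi, had 11.7 and 9.80 RPM, a ratio of 0.841 (0.622 to 1.14). Rab34, which binds the Rab7 effector RILP, had 5.94 and 7.86 RPM, a ratio of 1.32 (0.906 to 1.94) whose wide interval includes both 1 and the ratio of Rab7. The median log2 ratio of the 6 was 0.18, beside 0.11 for all genes at or above 5 RPM. After the rescaling without mitochondrial transcripts it was −0.0098, beside −0.075 for all genes. Summed reads of the 6 gave 206 and 249.8 RPM, of which Rab12 gave the most reads.

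Of 12 secretory Rab genes, none was at least 1.5-fold apart as deposited, Rab3a was 1.5-fold lower under all 3 rescalings and Rab13 under the last, and Rab2a and Rab6a had the highest ratios. Rab2a acts between Golgi and reticulum and also in autophagosome fusion. It (chromosome 4, 8535644 to 8607702) had 129 RPM in the wildtype and 188 RPM in the knockout-labelled library, a ratio of 1.46 (1.35 to 1.58). Rab6a, the main Rab of traffic within and from the Golgi (chromosome 7, 100607586 to 100641268), had 56.4 and 84.5 RPM, a ratio of 1.499 (1.33 to 1.69). Exons of Mrpl48 on the opposite strand cover 11.7% of the Rab6a exon bases. Rab43, also of the Golgi, had 15.5 and 20.9 RPM, a ratio of 1.35 (1.07 to 1.70), and 77.3% of its exon bases belong also to the same-strand gene model Gm45140.

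The Rab1 genes carry vesicles from reticulum to Golgi. Rab1b had 134 RPM in the wildtype and 139.96 RPM in the knockout-labelled library, a ratio of 1.04 (0.962 to 1.13). Rab1, the gene now called Rab1a, had 76.7 and 68.5 RPM, a ratio of 0.893 (0.798 to 0.9997) whose upper bound barely missed 1. Rab30, at the Golgi, had 4.52 and 5.36 RPM, a ratio of 1.19 (0.757 to 1.87) from 38 and 47 reads, too few to place it on either side.

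Of the Rabs of exocytosis, Rab8a, Rab10 and Rab13 take part in moving the glucose transporter GLUT4 to the surface. Rab10 had 111 RPM in the wildtype and 125 RPM in the knockout-labelled library, a ratio of 1.13 (1.03 to 1.23), or 0.985 after the last rescaling. Rab8a had 27.3 and 34.0 RPM, a ratio of 1.24 (1.04 to 1.48). Rab8b had 17.0 and 13.6 RPM, a ratio of 0.798 (0.620 to 1.02), and Rab13 had 7.49 and 5.13 RPM, a ratio of 0.685 (0.456 to 1.02). Rab3a and Rab3d act in regulated release of granules. Rab3a had 19.5 and 13.6 RPM, a ratio of 0.696 (0.545 to 0.886), with the opposite-strand gene Mpv17l2 reaching over its end. Rab3d had 19.9 and 24.4 RPM, a ratio of 1.23 (0.999 to 1.51). The median log2 ratio of the 12 secretory genes was 0.19, or 0.0099 after the last rescaling. Markers of neurons and Schwann cells, where Rab3a is abundant, summed to 11.7 and 14.9 RPM over 7 genes, with Snap25 at 0 reads in both libraries.

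At other sites, Rab23 was the lowest of all 35. Rab23, a negative regulator of hedgehog signalling at the cilium (chromosome 1, 33719896 to 33742564), had 13.7 RPM in the wildtype and 7.86 RPM in the knockout-labelled library, from 115 and 69 reads. Its ratio was 0.575 (0.420 to 0.782). The fibroblast markers Col1a1, Col3a1, Lum and Tcf21 were lower too, at ratios of 0.228, 0.175, 0.192 and 0.554, while Dcn and Pdgfra were at 1.04 and 0.982. The whole list of 6 fibroblast markers summed to 505 and 455 RPM, and its part in the Rab23 difference was not tested. Rab18, of reticulum and lipid droplets, had 85.96 and 109 RPM, a ratio of 1.27 (1.15 to 1.399). Rab28, a ciliary Rab, had 72.3 and 83.7 RPM, a ratio of 1.16 (1.04 to 1.29). Rab40c, a subunit of a ubiquitin ligase, had 8.798 and 12.7 RPM, a ratio of 1.44 (1.06 to 1.96).

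Per kb of exon in the GENCODE annotation, wildtype levels of the 35 genes ran from 0.474 RPM per kb for Rab30 to 66.8 RPM per kb for Rab1b. The next highest in the wildtype were Rab2a at 60.6, Rab12 at 55.2, Rab14 at 45.5 and Rab5a at 42.2 RPM per kb. In the knockout-labelled library Rab2a stood first at 88.3 RPM per kb, above Rab1b at 69.7, Rab5a at 62.2 and Rab12 at 62.1. Rab4b, at 7.58 RPM per kb in the wildtype, and Rab31, at 2.90, were far less abundant than the Rabs of the early secretory route. Rab7 stood between, at 14.8 and 24.8 RPM per kb. The highest ratios, of Rab4b and Rab31, thus belonged to genes of moderate or low level. So did the lowest ratios, of Rab23 and Rab13, at 3.04 and 4.54 RPM per kb in the wildtype. Counting intervals are wider for genes with few reads. Spread between animals is unknown, so neighbours in this order cannot be separated beyond counting error.

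**Figure D2:**
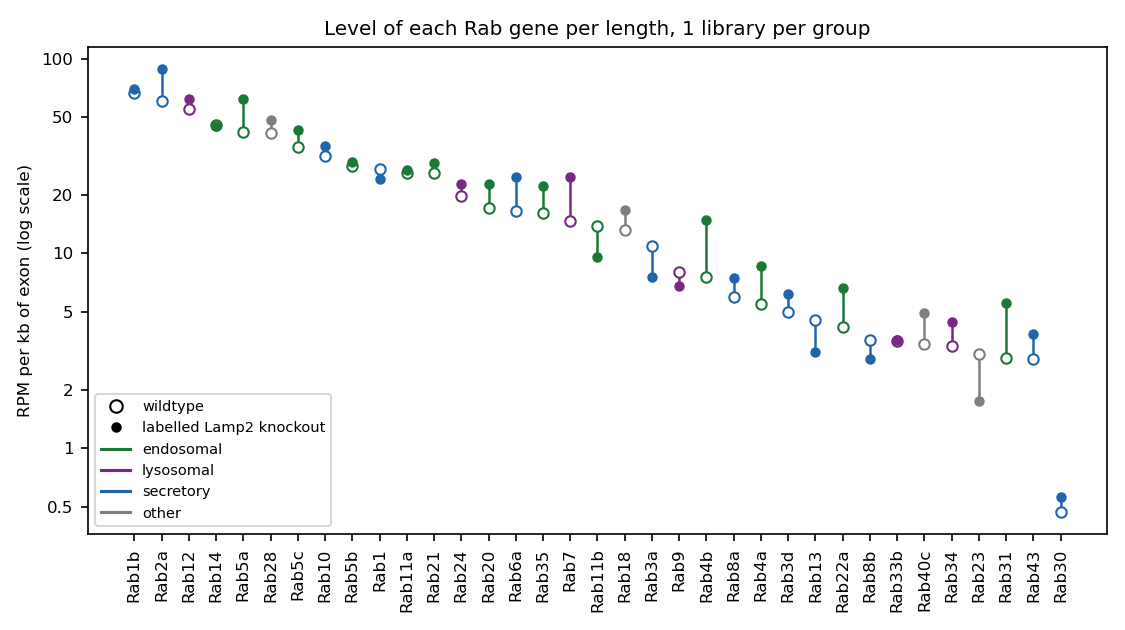
Level of the 35 Rab genes in RPM per kb of exon (log axis), ordered by the wildtype level; open circles are the wildtype library, filled circles the library labelled Lamp2 knockout, and colours the compartments. Rab1b at 66.8 RPM per kb leads the wildtype and Rab2a at 88.3 RPM per kb leads the knockout-labelled library.

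Paralogs of 1 family do much the same job, and the share of each in the family's reads does not depend on the scale of the library. In 6 families with at least 2 genes at or above 5 RPM, 8 pairs were compared by the ratio of their ratios. The exact 95% interval excluded 1 for 6 of them. Pairs of other genes were not compared, so whether this count is particular to Rab families was not tested. For single genes at or above 5 RPM, the interval lay above 1 for 35% and below 1 for 16.8%. Rab11a made up 41.5% (38.7 to 44.3) of Rab11 reads in the wildtype and 51.5% (48.5 to 54.5) in the knockout-labelled library. The ratio of Rab11a to Rab11b was thus 1.497 times as large (1.26 to 1.77), and Rab11b had more reads than Rab11a in the wildtype, while the 2 did not differ beyond counting error in the knockout-labelled library. Read shares are not corrected for exon length. Per kb of exon, Rab11a was higher in both libraries, at 25.8 and 26.7 RPM per kb against 13.9 and 9.63 for Rab11b. Rab3a made up 49.5% (44.0 to 55.1) and 35.7% (30.6 to 41.1) of Rab3 reads, and its ratio to Rab3d was 0.567 times as large (0.410 to 0.782).

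Rab8a made up 61.7% (56.5 to 66.6) of Rab8 reads in the wildtype and 71.5% (66.9 to 75.8) in the knockout-labelled library, a ratio to Rab8b 1.56 times as large (1.14 to 2.12). Of Rab8b, 5.46% of 50-base stretches occur elsewhere. Rab5a made up 38.6% (36.6 to 40.7) of Rab5 reads in the wildtype and 45.3% (43.4 to 47.1) in the knockout-labelled library, beside Rab5b at 34.5% and 28.7% and Rab5c at 26.9% and 26.0%. The ratio of Rab5a was 1.41 times that of Rab5b (1.23 to 1.61) and 1.21 times that of Rab5c (1.05 to 1.398). Rab5b shares 13.0% of its 50-base stretches with a pseudogene. Rab1 gave 36.4% and 32.9% of Rab1 reads, a ratio to Rab1b of 0.856 times (0.744 to 0.984). The Rab4 pair was not separable at this depth, with Rab4a at 51.6% (43.5 to 59.6) and 46.0% (40.2 to 52.0) and a ratio of ratios of 0.8003 (0.532 to 1.203). Nor were Rab5b and Rab5c, at 0.864 (0.744 to 1.003).

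**Figure D3:**
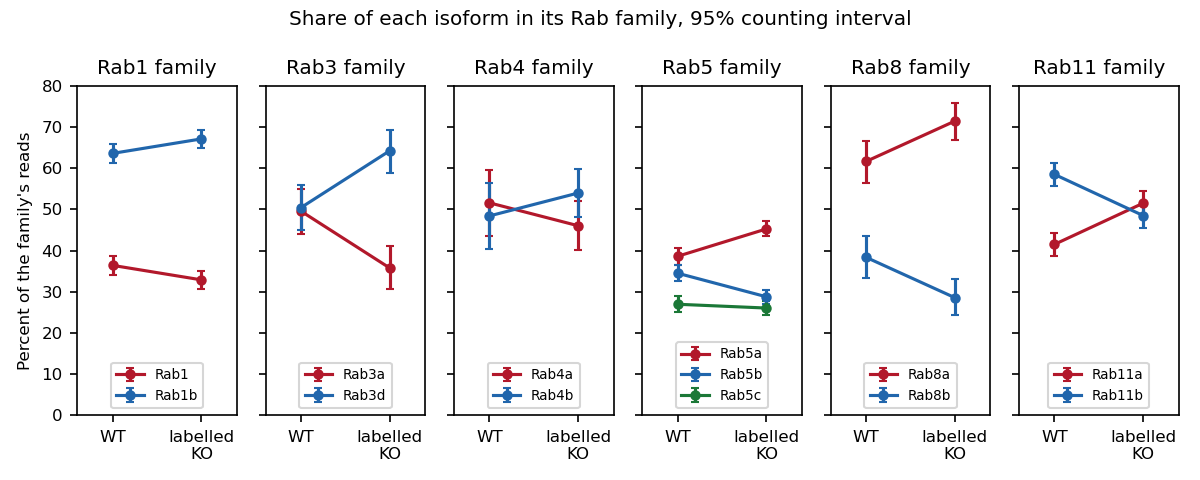
Percent of each family's reads from each gene in the wildtype library (WT) and the library labelled Lamp2 knockout (labelled KO) for 6 Rab families; bars are exact 95% counting intervals and lines join the same gene. The lines cross for Rab4, within the intervals, and for Rab11, where Rab11a is at 41.5% and 51.5%, and part for Rab1, Rab3 and Rab8. In the Rab5 family, Rab5a parts from Rab5b and Rab5c, which come closer to each other. Shares are of reads, not corrected for exon length.

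Of the 22 Rab genes below 5 RPM, 18 had at least 1 read. Rab26, Rab33a, Rab38 and Rab3c had 0 reads in both libraries, which allows up to 0.357 RPM in the wildtype and 0.342 RPM in the knockout-labelled library. Rab19, Rab39, Rab39b, Rab3b, Rab44 and Rab9b had at most 3 reads in either. Rab25, an epithelial relative of Rab11, had 0 and 6 reads, and the exact interval of its ratio starts at 1.13, or at 0.985 after the rescaling without mitochondrial transcripts. The 6 epithelial and mesothelial markers summed to 19.5 and 14.6 RPM, with Epcam at 0 in both, Cdh1 at 0 and 6 reads, Krt18 at 18 and 44, Krt19 at 29 and 16, Msln at 37 and 36 and Upk3b at 80 and 26, and their part in the Rab25 reads was not tested. Rab37, of mast cell and neutrophil granules, had 15 and 3 reads, a ratio of 0.192 (0.0356 to 0.678). Of the markers of neutrophils and blood, S100a9 had 5 and 88 reads, S100a8 had 1 and 6, and Pf4 had 40 and 39, and their part in the Rab37 reads was not tested. Rab6b, the neuronal form of Rab6, had 12 and 2 reads, a ratio of 0.160 (0.0174 to 0.718).

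Among the other low genes the intervals included 1. Rab27a and Rab27b, which release granules and exosomes, had 22 and 36 reads and 5 and 11 reads, with ratios of 1.57 (0.898 to 2.799) and 2.11 (0.676 to 7.74). Rab7l1, now called Rab29, a partner of the kinase LRRK2, had 4.40 and 3.31 RPM, a ratio of 0.751 (0.446 to 1.26). Rab32, of lysosome-related organelles, had 8 and 11 reads. Rab15, Rab17, Rab2b, Rab36 and Rab40b made up the rest, with Rab15 at 4 and 12 reads and a ratio of 2.88 (0.872 to 12.2).

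Genes that act on Rabs were read from 6 lists with 143 entries, of which 135 were in the table and 111 at or above 5 RPM. At least 2-fold higher were 5 of the 111 and none was at least 2-fold lower, beside 3.35% and 2.37% of all genes. With the median ratio or the trimmed mean, 4 were at least 2-fold higher (Rin3, Rin1, Tbc1d15 and Tbc1d9), against 2.45% and 2.44% of all genes. On these scales none was lower, against 3.02% and 3.04%. Under the last rescaling 2 were higher (Rin3 and Tbc1d15), against 2.11% of all genes. There 1 was lower (Tbc1d4, named after its value was seen), against 3.67%. The median log2 ratio of the 111 was 0.23 as deposited, 0.12 with the median ratio or the trimmed mean and 0.048 without mitochondrial transcripts. The 7 measured genes that prenylate Rabs or recycle them through the cytosol all had ratios above 1, from 1.16 to 1.94, with a median log2 ratio of 0.27, or 0.091 after the last rescaling. The eighth gene of the list, Chml, was just under 5 RPM at 4.52 and 2.17 RPM, a ratio of 0.479 (0.261 to 0.852). Gdi2, which extracts GDP-bound Rabs from membranes, had 157 and 207 RPM, a ratio of 1.32 (1.23 to 1.41), and is overlapped on the opposite strand. Rabac1, a Rab acceptor of the Golgi, had 189 and 231 RPM, a ratio of 1.22 (1.14 to 1.31). Rabif, which binds nucleotide-free exocytic Rabs, had 4.99 and 9.69 RPM, a ratio of 1.94 (1.33 to 2.88).

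Exchange factors load Rabs with GTP, and 2 of 27 were at least 2-fold higher. Both belong to the RIN family, which acts on Rab5 and, for RIN3, on Rab31. Rin3 had 15.6 RPM in the wildtype and 48.7 RPM in the knockout-labelled library, a ratio of 3.12 (2.56 to 3.83). Rin1 had 2.50 and 6.84 RPM, a ratio of 2.74 (1.64 to 4.74) from 21 and 60 reads. Sbf2 had a ratio of 1.49 (1.29 to 1.72), and Dennd5a, the exchange factor with the most reads, had 125 and 140.2 RPM, a ratio of 1.12 (1.03 to 1.22). The median log2 ratio of the 27 was 0.16 as deposited, 0.047 with the median ratio and −0.031 under the last rescaling. Its sign turned there, where the median of all genes was −0.075. In the TRAPP complexes, which activate Rab1, 0 of 10 genes reached 2-fold, the median log2 ratio was 0.24 (0.053 under the last rescaling), and Trappc6a and Trappc3 had ratios of 1.46 (1.24 to 1.72) and 1.35 (1.18 to 1.54).

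GTPase-activating proteins switch Rabs off, and 2 of 29 were at least 2-fold higher. Tbc1d15, which acts on Rab7, had 39.2 RPM in the wildtype and 108 RPM in the knockout-labelled library, a ratio of 2.75 (2.42 to 3.12). Tbc1d9 had 2.38 and 6.27 RPM, a ratio of 2.64 (1.55 to 4.64). The median log2 ratio of the 29 was 0.24, or 0.057 under the last rescaling. Rabgap1, with the most reads among these in the wildtype, had a ratio of 1.2025 and is overlapped on the opposite strand.

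Effectors bind active Rabs. Of 35, 1 was at least 2-fold higher and 0 lower, with a median log2 ratio of 0.23. Under the last rescaling the median was 0.050 and the ratio of the summed reads 0.993 (0.973 to 1.01), against 1.14 (1.11 to 1.16) as deposited. The higher one, as deposited alone, was Acap2, which binds Rab35, at 15.5 and 34.3 RPM, a ratio of 2.22 (1.801 to 2.75). Micall1, an adaptor on recycling endosomes, had 52.1 and 96.3 RPM, a ratio of 1.85 (1.65 to 2.08), and is overlapped on the opposite strand. Fyco1, which links Rab7 and autophagosomes to kinesin, had the most wildtype reads of the 35 and was lower, at 349 and 228 RPM, a ratio of 0.654 (0.617 to 0.692). It does not stand for Rab7 effectors as a set. Rilp, another Rab7 effector, named after its value was seen, had 33.6 and 55.2 RPM, a ratio of 1.64 (1.41 to 1.91). Ratios lay above 1 for 25 of the 35 and below 1 for 10, beside 61.2% and 38.8% of all genes. Plin3, which binds Rab9 and coats lipid droplets, had 320 and 478 RPM, a ratio of 1.497 (1.43 to 1.57). Lrrk1, a kinase of Rab7, and Ppm1h, a phosphatase of Rabs, had ratios of 0.842 (0.649 to 1.09) and 0.978 (0.734 to 1.30).

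**Figure D4:**
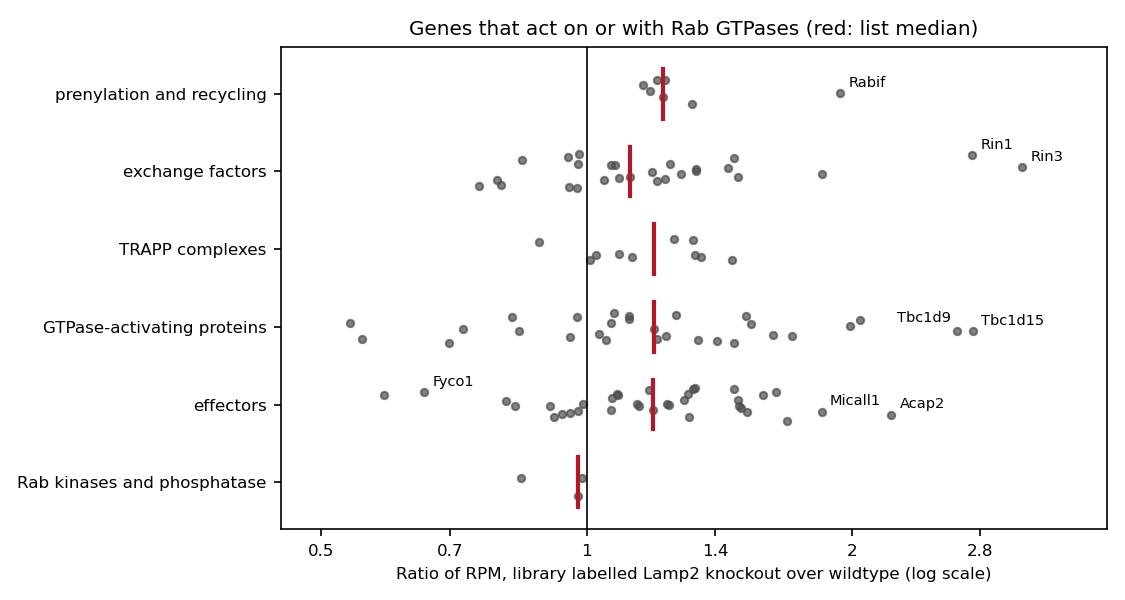
Ratio of RPM in the library labelled Lamp2 knockout over the wildtype library (log axis) for 111 genes in 6 lists that act on or with Rabs; each point is 1 gene and each red bar the median ratio of its list. Rin3, Rin1, Tbc1d15, Tbc1d9 and Acap2 are the 5 genes beyond 2-fold as deposited, with 1 RPM added, and Fyco1 lies to the left at 0.654.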

How the data were processed

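Both libraries share 1 deposited table, whose raw read counts per gene are labelled as such per the file headers. The deposited RPM equal each count over the library's total, times 1000000, within 5e-05. The authors' fold and the authors' p-value, deposited without a stated method, were not used. The submitters' processing notes name STAR, mm10 and GRCm38. For the counter, annotation and strand use, none of these sources gives a statement.

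Ratios of RPM carry exact conditional (Clopper-Pearson) 95% intervals, and shares exact binomial ones. Pairs were compared by conditional odds ratios. Log2 ratios used a pseudocount of 1 RPM and a minimum of 5 RPM. Reads are not independent molecules, so all intervals and floors cover counting error only. The script was tested on simulated data. Alternatives were other scalings, minimums, pseudocounts and folds. A length and GC correction and the removal of members with uncertain reads were chosen after seeing the data.

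Starts are given plus 1: in GENCODE M21 this matched a transcript start for 26 of 57 Rab genes, and the deposited start for 3. Exon lengths, overlaps and shared 50-base stretches came from that annotation. Any Rab gene could be named. Of partner genes, those at least 2-fold apart, and per list the 2 farthest from equal levels and the 2 with the highest level, could be. The Rab genes and lists were chosen with earlier results of these data known. Python 3.11.15, numpy 2.4.6, pandas 2.3.3, scipy 1.17.1 and matplotlib 3.10.9 were used.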

Additional observations from a re-analysis of the deposited data

How the results depend on the processing

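No paired analysis was possible because each group held 1 library, and none could be left out. No Rab gene was at least 2-fold higher or lower under the 3 rescalings, the pseudocounts of 0.1 and 5 RPM, the 3-fold limit, the minimum of 20 RPM, the length and GC correction or the removal of 11 genes with uncertain reads; 1 gene, Rab37, was at least 2-fold lower with a minimum of 1 RPM or none. A 1.5-fold limit gave 5 higher and 1 lower as deposited, 3 and 3 with the median ratio or the trimmed mean, and 2 and 4 with the third rescaling, an alternative chosen after seeing the data. Intervals above and below 1 numbered 19 and 4 as deposited, 12 and 7 with the median ratio or the trimmed mean, and 10 and 9 without mitochondrial and the 10 most abundant genes, and a minimum of 20 RPM left 2 below 1. Median log2 ratios for all, endosomal, lysosomal, secretory and other Rab genes, 0.21, 0.39, 0.18, 0.19 and 0.27 as deposited, were 0.11, 0.27, 0.067, 0.082 and 0.16 with the median ratio. They were 0.10, 0.27, 0.065, 0.079 and 0.16 with the trimmed mean, and 0.041, 0.20, −0.0098, 0.0099 and 0.080 with the third rescaling. The lysosomal sign was reversed under the third, where the median of all genes at or above 5 RPM was −0.075. That rescaling also turned Rab10, Rab12 and Rab21 to 0.985, 0.981 and 0.989. With a minimum of 20 RPM, which leaves 24 genes, the medians for all, endosomal and secretory genes were 0.28, 0.28 and 0.29, and with no minimum the secretory median was 0.082. A pseudocount of 0.1 RPM gave 0.24 for all genes and 5 RPM gave 0.34 for endosomal genes. The length and GC correction gave 0.14, 0.20, −0.032, 0.17 and 0.14 for all, endosomal, lysosomal, secretory and other genes. It again reversed the lysosomal sign and left the endosomal median close to the secretory one. Removal of uncertain genes gave 0.24 for all and 0.46 for endosomal genes. The rescalings lower every ratio by construction; for the other settings the cause was not tested.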
